A study of Gallus gallus with 6 samples.

Results

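The B cell transcription factors described here are 10 regulators of B cell and plasma cell identity, chosen by name: EBF1, PAX5, POU2AF1, IRF4, BCL6, PRDM1, IKZF1, IKZF3, SPI1 and BACH2. Every probe set that the platform annotation assigns to one of these symbols was taken, which gave 18 of the 38439 probe sets on the array, for 9 genes. BACH2 was matched to no annotated probe set and is not analysed here. The data are 6 single-colour Affymetrix chicken arrays of DT40, a B cell line from a chicken bursal lymphoma, made to ask how expression differs in mutants of the linker histone H1. The groups, with 2 arrays each, were K11-5 cells, which the labels call H1 complete null, K11 cells, in which they say endogenous H1 is knocked out, and wild type cells. All groups grew at 39.5 °C in 100 nM Z-VAD-FMK, a pan-caspase inhibitor, which the submitters added since loss of H1 induces apoptosis. The sources used here do not give how K11 and K11-5 are related or whether either is 1 clone. The labels do not say whether paired arrays are separate cultures, and the p-values below therefore rest on a spread that may be technical.

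B lineage commitment depends on a small network of transcription factors, known mainly from mouse and human cells. EBF1 and PAX5 switch on genes of the B cell receptor and its signalling chain, POU2AF1 (OCA-B, BOB.1) is a coactivator that binds octamer factors on immunoglobulin and other B cell genes, and SPI1 (PU.1) and the Ikaros proteins IKZF1 and IKZF3 act more widely in blood cells. BCL6 holds B cells in the germinal centre state, while IRF4 and PRDM1 (Blimp-1) drive differentiation into plasma cells, which secrete antibody.

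Signals are given after quantile normalization, in arbitrary units. A signal under 11.3, the level reached by control probe sets for sequences that were not added to the samples, is called below background. Fold changes are differences of log2(signal + 2), each with its standard error, and are too small for dim probe sets. A probe set was called where limma's adjusted p (Benjamini-Hochberg, over 23063 probe sets) was under 0.05. Counts at an unadjusted p under 0.05 always take both directions together, also where they stand beside a count of genes that fell or rose. Of the 18 probe sets, 15 passed the filter on low values, with at least 1 for each of the 9 genes, and the other 3 were all for PAX5.

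The actin control differed between the groups, as did some of the summed signals of cell type markers. In the B cell and erythroid sums K11-5 overlapped wild type. The 3' to 5' ratio of the actin control was 6.29 and 5.28 in K11-5, 9.23 and 9.31 in K11, and 8.10 and 7.15 in wild type. For the GAPDH control it was 0.914 and 0.798 in K11-5, 0.832 and 0.819 in K11, and 0.892 and 0.917 in wild type. There K11-5 overlapped both other groups. Of 17 B cell markers on the array, the number above background was 11 and 9 for K11-5, 16 and 17 for K11, and 13 and 14 for wild type. Their summed signal was 7241 and 4026 in K11-5, 15740.0 and 16693 in K11, and 7173 and 9012 in wild type. Of 11 T cell markers, 6 were below background on all 6 arrays (CD3E, CD4, LCK, ZAP70, GATA3 and CD28), and the summed signal was 325 and 521 in K11-5, 1299 and 1004 in K11, and 1247 and 1309.7 in wild type. Of 10 myeloid markers, 4 were below background throughout (LYZ, CSF3R, CTSG and LYG2), and the sums were 549 and 613 in K11-5, 1113 and 706 in K11, and 250.5 and 187 in wild type. The 5 genes of the erythroid list summed to 166 and 139.8 in K11-5, 112 and 136 in K11, and 162 and 164 in wild type. Most of each sum came from ALAS1, to which the listed ALAS2 was matched. ALAS1 had 133 and 107 in K11-5, 76.7 and 87.6 in K11, and 136 and 127 in wild type. These sums thus say little about erythroid genes. Single genes carried much of these sums. IGLL1 had 3786 and 2329 in K11-5, 4705 and 5385 in K11, and 1335 and 1198 in wild type, and CD74 had 920.3 and 245 in K11-5, 5314 and 4990.3 in K11, and 1008 and 1225 in wild type. CD3D had 211 and 392 in K11-5, 1151 and 851 in K11, and 1137 and 1158 in wild type, and CEBPB of the myeloid list had 446 and 547 in K11-5, 941 and 487 in K11, and 177 and 82.9 in wild type. The part of these differences in the results below was not tested. In bulk RNA, fewer cells of a type and less RNA per cell cannot be told apart.

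EBF1, POU2AF1 and IRF4 were lower in K11-5 than in wild type cells, and the Ikaros genes, SPI1, BCL6, PAX5 and PRDM1 had no probe set past the threshold. Of the 15 tested probe sets, 4 fell in K11-5, namely both for EBF1, 1 of 2 for POU2AF1 and the one for IRF4; of all tested probe sets 5.46% were called, 2.86% lower and 2.6% higher. None of the 15 rose. At an unadjusted p under 0.05 there were 10. The median log2 fold change was -1.02 over the 15 and -0.0038 over all tested probe sets. In 10 of the 15 both K11-5 arrays lay below both wild type arrays, as in 26.9% of all tested probe sets, and in 2 both lay above, as in 26.3%. The number called was 1 if wild type replicate 1 was left out, 0 in limma if wild type replicate 2 was (7 at an unadjusted p under 0.05), and 2 if K11-5 replicate 2 was. In limma without an intensity trend in the variance it was 0, with 4 at an unadjusted p under 0.05, and over the whole array that setting called 27 probe sets in place of 1260.

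**Figure D1:**
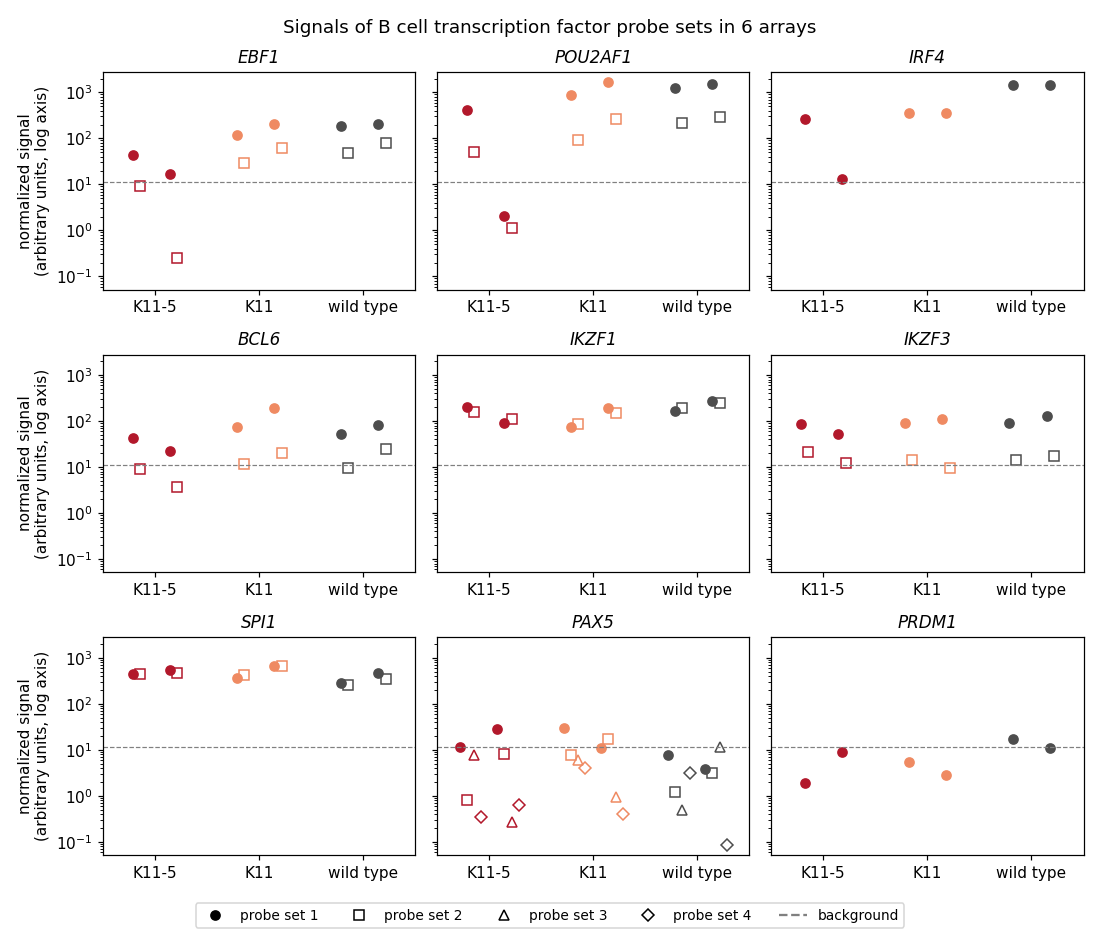
Normalized signal (arbitrary units, log axis) of all 18 probe sets in each array, with K11-5, K11 and wild type from left to right in a panel per gene; a point is 1 array, the symbol gives the probe set, and the dashed line is the background of 11.3. Within a probe set, the EBF1, POU2AF1 and IRF4 points of K11-5 lie below those of the other groups, and most PAX5 and PRDM1 points lie below background.

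EBF1, a factor that starts the B cell program and opens its chromatin, is on chromosome 13 in RefSeq GRCg7b. Its brighter probe set had signals of 43.6 and 17.2 in K11-5, 121 and 201 in K11, and 182 and 204 in wild type. Both K11-5 arrays lay below the other 4, while K11 overlapped wild type. EBF1 fell by 2.72 ± 0.39 on the log2 scale in K11-5 relative to wild type, or 6.59-fold (adjusted p = 0.00504), and fell by 2.42 ± 0.39 relative to K11 (adjusted p = 0.0153). Between K11 and wild type the log2 fold change was -0.30 ± 0.39 (adjusted p = 0.719). The dimmer probe set had 9.38 and 0.25 in K11-5, 29.1 and 60.7 in K11, and 48.5 and 80.0 in wild type. It was below background in both K11-5 arrays, at least 4.83-fold lower than in wild type (adjusted p = 0.015) and at least 3.31-fold lower than in K11 (adjusted p = 0.0434). Over the 6 arrays the probe sets correlated with r = 0.991. With wild type replicate 2 left out the brighter one had -2.64 relative to wild type (adjusted p = 0.0647), and with K11-5 replicate 2 left out it had -1.79 relative to K11 (adjusted p = 0.0933). The dimmer one lost its call relative to wild type without wild type replicate 1 or 2 or K11-5 replicate 2 (adjusted p = 0.0613, 0.153 and 0.0634), and relative to K11 it passed in no fit without 1 array other than that without K11-5 replicate 1.

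POU2AF1, the octamer coactivator, is needed in mice for germinal centres. Its brighter probe set had 419.5 and 2.02 in K11-5, 885 and 1702 in K11, and 1252 and 1523 in wild type. Both K11-5 arrays lay below the other 4, and replicate 2 lay below background. The log2 fold change was -5.07 ± 1.53 in K11-5 relative to wild type (adjusted p = 0.091) and -4.90 ± 1.53 relative to K11 (adjusted p = 0.128). The dimmer probe set had 50.9 and 1.11 in K11-5, 91.4 and 267 in K11, and 212 and 290.4 in wild type. It fell by 4.28 ± 1.01 in K11-5 relative to wild type (adjusted p = 0.0377), with -3.63 ± 1.01 relative to K11 (adjusted p = 0.0903). The groups were ordered alike at both probe sets, which correlated with r = 0.982 over the 6 arrays. In K11 relative to wild type they had -0.17 ± 1.53 and -0.66 ± 1.01 (adjusted p = 0.965 and 0.767). POU2AF1 is on chromosome 24, whose 110 tested genes had a median difference from wild type of -0.30 (log2) for K11-5 and -0.20 for K11. Leaving out K11-5 replicate 1 gave the brighter probe set -8.43 relative to wild type (adjusted p = 4.07e-05) and leaving out replicate 2 gave it -1.71 (adjusted p = 0.0604). The call of the dimmer one was lost without K11-5 replicate 2 (-2.24) and without wild type replicate 1 or 2. It was also lost without the filter on low values and without the intensity trend, and passed in 9 of 14 alternatives.

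IRF4, a factor of B cell activation that plasma cells need, had signals of 261 and 13.4 in K11-5, 349 and 359.8 in K11, and 1415 and 1433 in wild type. The 3 groups did not overlap. The arrays of K11 and of wild type lay close together, and those of K11-5 lay 17.1-fold apart. IRF4 fell by 4.49 ± 0.93 in K11-5 relative to wild type (adjusted p = 0.0234). In K11 it was 4.0-fold below wild type, a log2 fold change of -2.0 ± 0.93 that did not pass in the fit over all 6 arrays (adjusted p = 0.249). The same difference passed in a fit of K11 and wild type alone (adjusted p = 0.000466) and without K11-5 replicate 1 or 2 (adjusted p = 0.00135 and 0.000762), and over all alternatives its adjusted p reached 0.515. K11-5 relative to K11 had -2.49 ± 0.93 (adjusted p = 0.199), which became -4.54 without K11-5 replicate 1 (adjusted p = 6.17e-05) and -0.44 without replicate 2 (adjusted p = 0.369). The call of K11-5 relative to wild type was lost without wild type replicate 1 or 2 (adjusted p = 0.114 and 0.149). IRF4 is on chromosome 2, whose 875 tested genes had a median of -0.36 relative to wild type in either line.

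**Figure D2:**
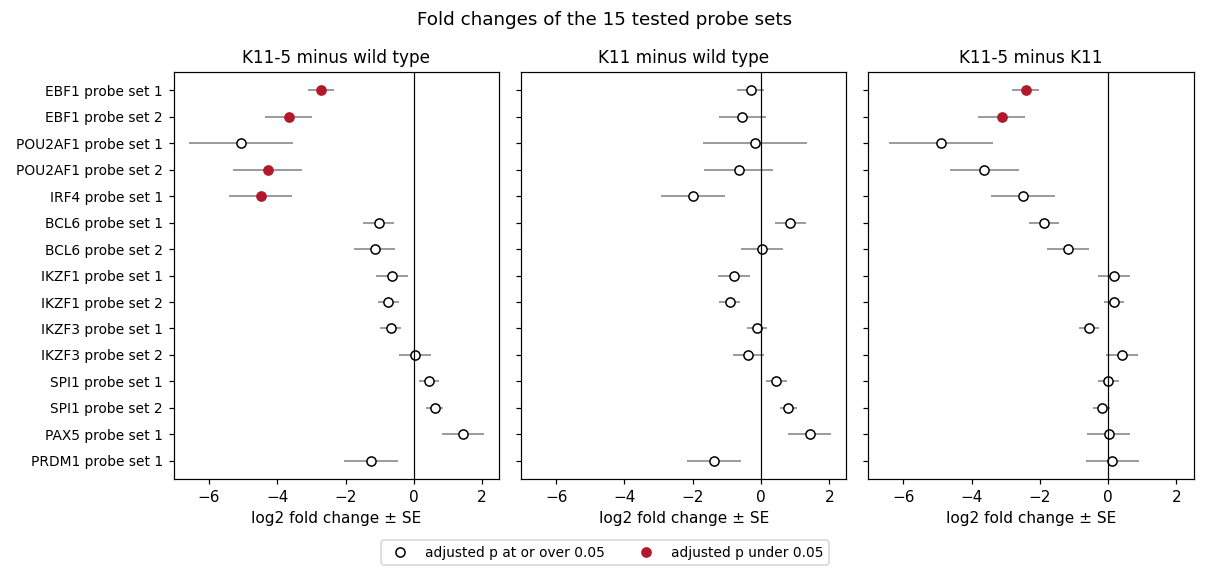
Log2 fold change (x axis) of the 15 tested probe sets, with K11-5 minus wild type, K11 minus wild type and K11-5 minus K11 in 3 panels; bars are standard errors and filled points have an adjusted p under 0.05. The 4 filled points of the left panel are EBF1, POU2AF1 and IRF4 probe sets, the middle panel has none, and the 2 of the right panel are EBF1.

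BCL6 is a repressor that holds B cells in the germinal centre state. Its brighter probe set had signals of 42.7 and 22.5 in K11-5, 74.5 and 192 in K11, and 52.3 and 81.5 in wild type. Both K11-5 arrays were below the other 4, and K11 replicate 2 was the highest. The log2 fold changes were -1.02 ± 0.45 in K11-5 and 0.86 ± 0.45 in K11 relative to wild type (adjusted p = 0.255 and 0.315), and -1.88 ± 0.45 in K11-5 relative to K11 (adjusted p = 0.0582). The difference between K11-5 and K11 passed in 4 of 14 alternatives. BCL6 is on chromosome 9, whose tested genes had medians of 0.44 in K11-5 and 0.47 in K11 relative to wild type. The dimmer probe set had 8.90 and 3.65 in K11-5, 11.9 and 20.7 in K11, and 9.44 and 24.5 in wild type. It was below background in K11-5 and in wild type replicate 1.

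PRDM1, the repressor that shuts off B cell genes in plasma cells, had 1.89 and 8.92 in K11-5, 5.39 and 2.85 in K11, and 16.8 and 10.8 in wild type. It was above background on 1 of 6 arrays, wild type replicate 1. Relative to wild type the adjusted p was 0.439 in K11-5 and 0.349 in K11.

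PAX5, the factor that maintains B cell identity, was dim at all 4 of its probe sets. The one that was tested had 11.4 and 28.8 in K11-5, 29.8 and 10.8 in K11, and 7.71 and 3.75 in wild type. Both wild type arrays were below background and below the arrays of either line, and 3 arrays were above background. Relative to wild type it was at least 1.52-fold higher in K11-5 (adjusted p = 0.245) and at least 1.51-fold higher in K11 (adjusted p = 0.217), neither of them past the threshold. These folds rest largely on 1 array in each line, as K11-5 replicate 1 lay at background and K11 replicate 2 below it. The other 3 were above background on 1, 1 and 0 arrays, with signals of 0.26 to 8.14 in K11-5, 0.41 to 16.8 in K11 and 0.085 to 11.4 in wild type.

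IKZF1 (Ikaros), a zinc finger regulator of lymphocyte development, had 204 and 91.2 in K11-5, 74.7 and 197 in K11, and 164 and 275 in wild type at one probe set. The other had 157 and 108 in K11-5, 86.8 and 153 in K11, and 193 and 252 in wild type. There all arrays of both lines were below both wild type arrays, with log2 fold changes of -0.75 ± 0.30 in K11-5 (adjusted p = 0.21) and -0.92 ± 0.30 in K11 (adjusted p = 0.102). IKZF1, like IRF4, is on chromosome 2. IKZF3 (Aiolos), its relative in maturing B cells, had 87.1 and 51.9 in K11-5, 89.8 and 111 in K11, and 92.8 and 128 in wild type at the brighter probe set. Both K11-5 arrays were the lowest, with -0.68 ± 0.30 relative to wild type (adjusted p = 0.252). The dimmer one had 21.3 and 12.4 in K11-5, 14.4 and 9.72 in K11, and 14.2 and 17.8 in wild type, and correlated with the brighter at r = 0.152 over the 6 arrays. IKZF3 is on chromosome 27, whose tested genes had medians of 0.43 in K11-5 and 0.022 in K11 relative to wild type.

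SPI1, the gene of the ETS factor PU.1, had 454 and 471 in K11-5, 413 and 679 in K11, and 262 and 351 in wild type at one probe set. All arrays of both lines were above both wild type arrays, with log2 fold changes of 0.61 ± 0.24 in K11-5 (adjusted p = 0.2) and 0.80 ± 0.24 in K11 (adjusted p = 0.0758). At the other it had 441 and 543 in K11-5, 359 and 668 in K11, and 279 and 461 in wild type. Those groups overlapped, with 0.44 ± 0.31 in K11-5 and 0.45 ± 0.31 in K11 (adjusted p = 0.493 and 0.45), and the sign in K11 turned on the deposited scale (-0.074) and with median-centred arrays (-0.010).

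The K11-5 arrays lay far apart at EBF1, POU2AF1 and IRF4. Over the 15 tested probe sets the median size of the gap between the arrays of a group, on the log2 scale, was 1.14 in K11-5, 0.81 in K11 and 0.457 in wild type. Over all tested probe sets it was 0.339 in K11-5, 0.415 in K11 and 0.274 in wild type. In K11-5, 4 of the 15 were past the 95th percentile of all gaps in that group (1.73), and in K11 and wild type 0 were. Those 4 were both POU2AF1 probe sets, IRF4 and the dimmer EBF1 probe set, and replicate 2 was the lower array in each. Replicate 2 was lower at 11 of the 15 in K11-5, 3 in K11 and 2 in wild type. Over all tested probe sets in K11-5, 54.9% had a gap (replicate 2 minus replicate 1) of 0.053 or lower. The exact share with replicate 2 lower was not counted in any group. Of 23063 probe sets, the brighter one of POU2AF1 was the farthest down in replicate 2, 105-fold below replicate 1, while IRF4 was in place 6 and the dimmer one of POU2AF1 in place 7. Gaps of 4 or more occurred at 8 probe sets downward and 9 upward. Between the arrays of a group r was 0.939 in K11-5, 0.931 in K11 and 0.954 in wild type over all tested probe sets. The brighter EBF1 probe set, with a gap of -1.25 in K11-5, was within that percentile. The cause of these gaps was not tested.

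**Figure D3:**
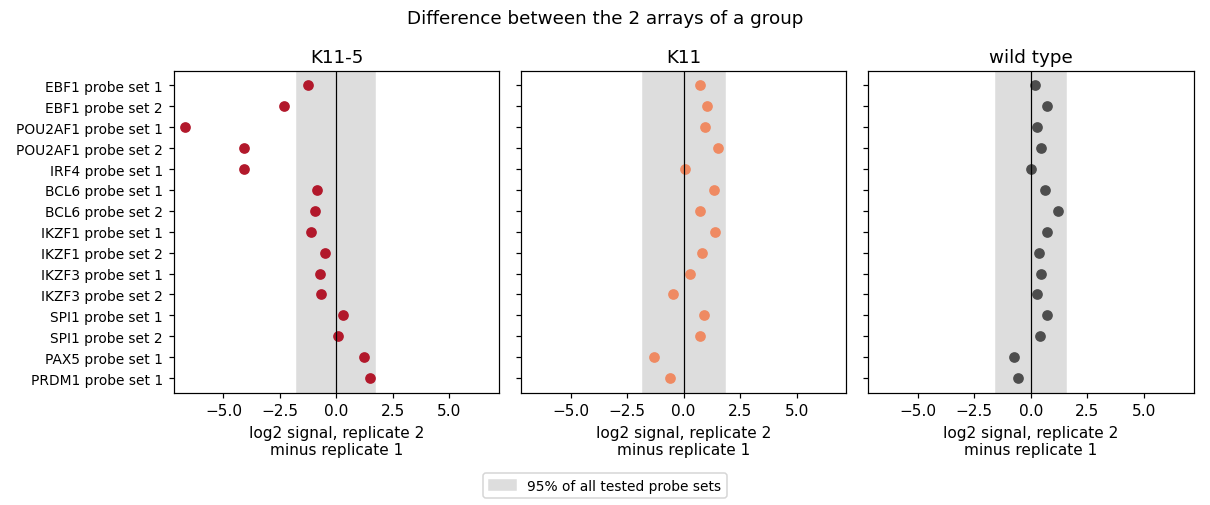
Log2 signal of replicate 2 minus replicate 1 (x axis) for the 15 tested probe sets in K11-5, K11 and wild type; the grey band holds 95% of all tested probe sets by the size of the gap. In K11-5 the POU2AF1 probe sets, IRF4 and the dimmer EBF1 probe set lie left of the band, and in K11 and wild type all points lie inside it.

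K11 was compared with wild type and with K11-5 to place each regulator in the line with endogenous H1 knocked out. Relative to wild type, 0 of 15 probe sets passed in limma in K11, and 3 had an unadjusted p under 0.05, for SPI1, IKZF1 and PAX5; 7.7% of all tested probe sets were called, 3.75% higher and 3.95% lower. The median log2 fold change was -0.30 over the 15 and -0.014 over all tested probe sets. K11 did not overlap wild type at 3 probe sets that were lower, as at 26.8% of all tested probe sets, and 2 that were higher, as at 25.1%. In K11-5 relative to K11, 2 of 15 fell, both for EBF1, and 0 rose; of all tested probe sets 2.84% were called, 1.76% lower and 1.08% higher. The median was -0.56, against 0.024 over all tested probe sets. At 8 of the 15 both K11-5 arrays lay below both K11 arrays, as at 21.8% of all tested probe sets, and at 0 did both lie above, as at 23.7%. The comparisons with K11 share arrays with the one of K11-5 and wild type.

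Genes that PAX5 is known to activate in mice, which serve the B cell receptor, its signalling and antigen presentation, were counted over all 3 comparisons. Of 19 tested, 5 fell and 1 rose in K11-5 relative to wild type, 1 fell and 4 rose in K11 relative to wild type, and 11 fell and 0 rose in K11-5 relative to K11. Over all tested probe sets, the shares called in either direction were 5.46%, 7.7% and 2.84% in that order, and these also stand behind the counts of the lists that follow. The median log2 fold changes of the list were -1.08, 1.15 and -1.73. Those lower in K11-5 than in wild type were VPREB3, CD72, CD79B, RASGRP3 and BTK. CD79B, a receptor chain that carries the signal into the cell, had 162 and 21.7 in K11-5, 1308 and 1333 in K11, and 1038 and 1507 in wild type, and it fell by 4.33 ± 0.65 relative to wild type (adjusted p = 0.00639). BTK, a kinase below that receptor, had 223 and 149 in K11-5, 564 and 655 in K11, and 540 and 697 in wild type, and fell by 1.74 ± 0.22. For both genes K11 overlapped wild type.

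PTPN6, a phosphatase that restrains receptor signalling, had 132 and 99.3 in K11-5, 289 and 276 in K11, and 94.4 and 167 in wild type. It rose by 1.16 ± 0.28 in K11 relative to wild type (adjusted p = 0.034). CD74, the invariant chain, rose by 2.21 ± 0.45 in K11, and so did PIK3AP1, an adaptor of PI3 kinase named after its value was seen, by 1.27 ± 0.33 (adjusted p = 0.0441). CIITA, the master regulator of MHC class II genes, had 1.67 and 3.70 in K11-5, 31.3 and 69.8 in K11, and 7.33 and 12.5 in wild type. It was at least 3.67-fold lower in K11-5 than in K11 (adjusted p = 0.0165). BST1, an ectoenzyme also named after its value was seen, was the one that rose in K11-5 relative to wild type, by 2.09 ± 0.37 (adjusted p = 0.0128), with 35.3 and 43.4 in K11-5, 23.4 and 18.8 in K11, and 7.68 and 7.69 in wild type. Without the intensity trend, 1 gene of the list fell and 0 rose in limma in K11-5 relative to wild type (9 at an unadjusted p under 0.05). In K11 relative to wild type 0 then passed in limma (7 at an unadjusted p under 0.05). The number lower in K11-5 relative to wild type became 3 when wild type replicate 2 was dropped and 9 when K11-5 replicate 1 was. The number lower in K11-5 relative to K11 was 4 without K11-5 replicate 2, 7 without K11 replicate 2 and 0 in limma without the intensity trend (12 at an unadjusted p under 0.05). The number higher in K11 relative to wild type was 0 in limma without wild type replicate 1, K11 replicate 1 or K11 replicate 2.

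**Figure D4:**
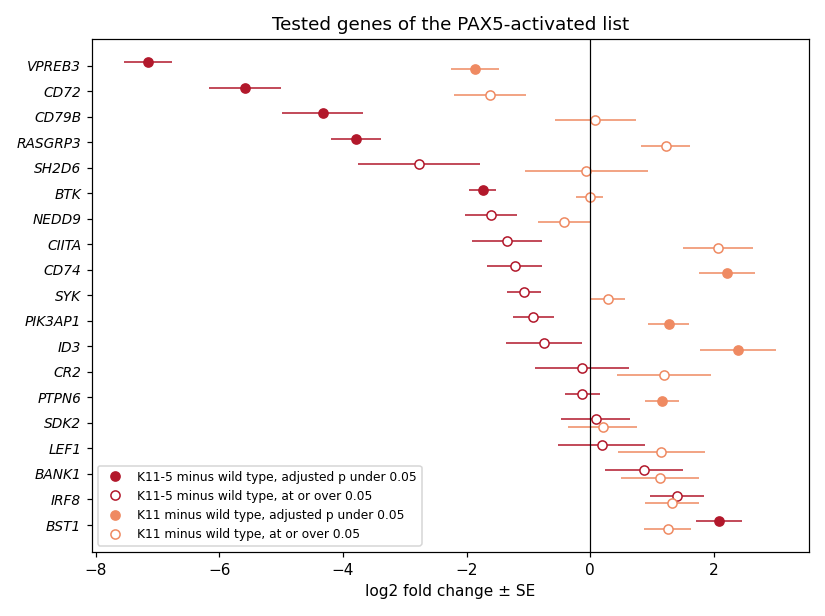
Log2 fold change (x axis) of the 19 tested PAX5-activated genes in K11-5 and in K11, each minus wild type, with standard errors; filled points have an adjusted p under 0.05. VPREB3, CD72, CD79B, RASGRP3 and BTK have filled K11-5 points left of 0, and PTPN6, PIK3AP1, CD74 and ID3 have filled K11 points right of 0.

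Target lists of the other members share genes with that list, and some of them also hold members. Of 8 tested EBF1 targets, VPREB3 and CD79B fell and IGLL1, an immunoglobulin light chain gene by its annotation, rose in K11-5 relative to wild type, with a median of -1.35. VPREB3 fell and IGLL1 rose in K11 relative to wild type, with a median of 0.64, and CD79B, VPREB3, CIITA and FOXO1 fell in K11-5 relative to K11, with a median of -2.61. That last count of 4 was 2 without K11 replicate 2 or K11-5 replicate 2 and 0 in limma without the intensity trend (4 at an unadjusted p under 0.05). Of 4 tested genes on the list of octamer and POU2AF1 targets, IGLL1 rose in K11-5 and in K11 relative to wild type, and CIITA fell in K11-5 relative to K11. That list also holds POU2F1, itself an octamer factor. JCHAIN, which joins antibody units for secretion, had 1785 and 168 in K11-5, 1979 and 1232 in K11, and 1259 and 1091 in wild type, with K11-5 replicate 2 as the lowest array, and it did not pass in any of the comparisons.

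Of 5 tested PU.1 targets, BTK fell in K11-5 relative to wild type, and BTK, SYK and PTPRC fell in K11-5 relative to K11. With any 1 array left out, 0 to 2 fell in K11-5 relative to K11, and 0 to 3 in K11-5 relative to wild type. SYK, a kinase of the B cell receptor, had 249.9 and 154 in K11-5, 404 and 634 in K11, and 372 and 466 in wild type, and its log2 fold change was -1.36 ± 0.28 relative to K11 (adjusted p = 0.0342). In K11 relative to wild type 0 of the 5 passed in limma, and 0 had an unadjusted p under 0.05. Without the intensity trend 0 of the 5 passed in limma in any comparison. At an unadjusted p under 0.05 there were then 2 in K11-5 relative to wild type and 3 relative to K11. Of 10 tested PAX5-repressed genes, IRF4 itself fell in K11-5 relative to wild type and CD47 fell in K11-5 relative to K11, and 0 passed in limma in K11 relative to wild type (2 at an unadjusted p under 0.05).

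The lists for IRF4, BCL6 and PRDM1, members that act in the plasma cell switch, were counted in the same way. Of 10 tested IRF4 targets, 0 passed in limma in any of the 3 comparisons, with 2 at an unadjusted p under 0.05 in K11-5 and 1 in K11 relative to wild type, and 2 in K11-5 relative to K11. The 2 in K11-5 relative to wild type were the members IKZF3 and BCL6, described above, and BCL6 was also among those relative to K11. The members PRDM1 and IKZF1 are on that list as well. MYC, a growth regulator on that list, had 4348 and 4257 in K11-5, 3840 and 2919 in K11, and 4828 and 3687 in wild type. Both lines overlapped wild type, while both K11-5 arrays lay above both K11 arrays (adjusted p = 0.272). Of 14 tested BCL6-repressed genes, CDKN1B, ATR and ID2 rose in K11-5 relative to wild type. In K11 relative to wild type CDKN1B, ATR and NFKB1 rose and BCL2 fell, and NFKB1 fell in K11-5 relative to K11. CDKN1B, an inhibitor of the cell cycle, had 202 and 199 in K11-5, 276 and 226 in K11, and 98.6 and 112 in wild type. Of 6 tested PRDM1-repressed genes, 0 passed in limma in K11-5 relative to wild type (4 at an unadjusted p under 0.05), ID3 rose in K11 relative to wild type, and CIITA and ID3 fell in K11-5 relative to K11. The 4 at an unadjusted p under 0.05 were CIITA and the members POU2AF1, BCL6 and PAX5. PAX5 was higher in K11-5 than in wild type, and the other genes were lower. Without the intensity trend 0 genes of the BCL6 and PRDM1 lists passed in limma in any comparison. The BCL6 list then had 4 at an unadjusted p under 0.05 in each comparison. The PRDM1 list had 1 in K11-5 and 2 in K11 relative to wild type, and 3 in K11-5 relative to K11. With any 1 array left out, 0 to 3 BCL6-repressed genes rose in either line relative to wild type, and 0 to 2 PRDM1-repressed genes fell in K11-5 relative to K11.

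Of 14 tested plasma cell genes, 5 fell in K11-5 and 6 fell in K11 relative to wild type, with medians of -0.63 and -0.41, and none rose. The shares of all tested probe sets that were lower were 2.86% in K11-5 and 3.95% in K11. The number that fell in K11-5 was 2 without wild type replicate 1 or K11-5 replicate 2, the number that fell in K11 became 2 when wild type replicate 1 was dropped and 3 when replicate 2 was, and both were 0 in limma without the intensity trend (6 each at an unadjusted p under 0.05). DERL3, SEC11C, TXNDC5, HSP90B1 and PDIA4 fell in both lines and CKAP4 in K11. These encode proteins that fold, cut or dispose of secreted proteins in the endoplasmic reticulum or anchor it, work done in cells other than plasma cells as well. DERL3 had 86.2 and 113 in K11-5, 206 and 258 in K11, and 473 and 399.8 in wild type, and fell by 2.12 ± 0.22 in K11-5 relative to wild type (adjusted p = 0.000889). PDIA4, a disulfide isomerase, had 407 and 536 in K11-5, 442 and 452 in K11, and 1512 and 1204 in wild type. XBP1, the transcription factor that expands the secretory pathway, named after its value was seen, had 2241 and 1878 in K11-5, 2449.6 and 1979 in K11, and 1894 and 1837 in wild type, with no call. In K11-5 relative to K11, CKAP4 rose and DERL3 fell. The rise lost its call without a filter, with a filter at the median and without the intensity trend. So it did with the replicate block, with only the 2 groups and without any 1 array other than K11-5 replicate 1.

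Of 27 other B cell transcription regulators tested, 1 rose and 2 fell in K11-5 relative to wild type, with a median of -0.18, where 5.46% of all tested probe sets were called. With any 1 array left out, 0 to 2 rose and 0 to 3 fell. ID2, an inhibitor of E proteins, rose by 1.62 ± 0.27 (adjusted p = 0.0101), with 511 and 892 in K11-5, 389.9 and 309.9 in K11, and 258 and 183 in wild type. BCL11A, a zinc finger factor needed for early B cells, fell by 1.41 ± 0.26 (adjusted p = 0.0147), with 96.0 and 69.7 in K11-5, 144 and 171 in K11, and 182 and 269 in wild type. BHLHE40, a repressor of activated lymphocytes, fell by 2.09 ± 0.41 (adjusted p = 0.0187). In K11 relative to wild type ID3, a relative of ID2, was at least 3.31-fold higher (adjusted p = 0.043), with 35.8 and 49.6 in K11 and both other groups below background. FOXO1, which acts with EBF1 in early B cells, had 107 and 24.7 in K11-5, 325 and 290.0 in K11, and 119 and 154.5 in wild type, and fell by 2.52 ± 0.51 in K11-5 relative to K11 (adjusted p = 0.0326). Without the intensity trend 0 of the 27 passed in limma in any comparison. At an unadjusted p under 0.05 there were then 5 in K11-5 and 3 in K11 relative to wild type, and 6 in K11-5 relative to K11. IRF8, a relative of IRF4, had 546 and 203 in K11-5, 428 and 234 in K11, and 99.1 and 158 in wild type. Its lines lay above wild type, with 1.40 ± 0.44 in K11-5 and 1.33 ± 0.44 in K11 (adjusted p = 0.101 and 0.103), the opposite sign to IRF4; IRF8 was named after its value was seen.

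Markers of B cells and other blood cells were counted in the same way. Of 15 tested B cell markers, 6 fell and 1 rose in K11-5 relative to wild type, 1 fell and 2 rose in K11 relative to wild type, and 10 fell in K11-5 relative to K11, where 5.46%, 7.7% and 2.84% of all tested probe sets were called in either direction. These counts largely repeat the PAX5-activated list. It also holds all markers that fell in K11-5 relative to wild type except BLB1, and all that fell relative to K11 except BLB1 and PTPRC. Leaving out 1 array gave 4 to 9 that fell relative to wild type in K11-5 and 4 to 10 relative to K11, with 4 of the last kind without K11-5 replicate 2. Without the intensity trend these were 1 and, in limma, 0 (10 at an unadjusted p under 0.05). Of 5 tested T cell markers, CD3D fell in K11-5 relative to wild type and to K11, and 0 passed in limma in K11 relative to wild type (2 at an unadjusted p under 0.05). Of 6 tested myeloid markers, CEBPB rose in both lines and TLR2A in K11 relative to wild type, and TLR2A fell in K11-5 relative to K11. Of 4 tested genes of the erythroid list, with ALAS1 in place of ALAS2, 0 passed in limma in any comparison. At an unadjusted p under 0.05 there were 0 in K11-5 relative to wild type and 3 in each of the others.

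Over the 6 arrays the members with the widest range of signals were matched with the genes most like them, by Pearson r of the log2 signals among 3507 or 3508 candidate probe sets. These r describe 6 arrays that share 3 groups, and 127 candidates had r above 0.9 with EBF1. Most like EBF1 were EVL, ST6GAL1 and B3GNT5 (r = 0.989, 0.988 and 0.987). ST6GAL1, a sialyltransferase, had 109 and 32.8 in K11-5, 223 and 311 in K11, and 285 and 345 in wild type. Most like POU2AF1 were SH2D6, to which RefSeq gives BLNK as another name, CCNY and HIVEP2 (r = 0.996, 0.992 and 0.990), with 139 candidates above 0.9. SH2D6 had 699 and 33.1 in K11-5, 833 and 1263 in K11, and 925 and 1238 in wild type. Most like IRF4 were SAMSN1, ATP10A and VPS13B (r = 0.993, 0.986 and 0.985), with 87 above 0.9. SAMSN1, a lymphocyte adaptor, had 31.9 and 1.34 in K11-5, 28.3 and 39.0 in K11, and 146 and 118 in wild type.

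Most like BCL6 were RASSF2, TMEM87B and NALCN (r = 0.976, 0.974 and 0.968), with 53 candidates above 0.9. Most like PAX5 were ZMYND11, IL22RA2 and ALOX5AP (r = 0.989, 0.986 and 0.970), with 46 above 0.9. Most like PRDM1 were IMPG2, CD40LG and P4HA2 (r = 0.991, 0.985 and 0.984), with 50 above 0.9. PRDM1 was above background on 1 of 6 arrays and this PAX5 probe set on 3, so their r rest largely on signals near or below background. Between members, r was 0.918 for EBF1 with POU2AF1, 0.930 for POU2AF1 with IRF4 and 0.897 for EBF1 with IRF4. The brighter probe set of IKZF3, which had no call, was as close, with r of 0.933 with POU2AF1, 0.903 with EBF1 and 0.892 with IRF4. K11-5 replicate 2 was the lowest array for each of these genes, at 17.2 for EBF1, 2.02 for POU2AF1, 13.4 for IRF4 and 51.9 for IKZF3. How far these r depend on that array was not tested. For PAX5 with IKZF1 r was -0.937, with the same limit for the PAX5 signals.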

How the data were processed

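Total RNA was measured on Affymetrix chicken arrays, 2 for each group. The authors deposited 1 linear intensity per probe set and array, made with GCOS per the submitters' processing notes; the sources used here give neither its algorithm nor its scaling. Without 96 AFFX controls, log2(intensity + 2) of the deposited values was quantile-normalized, and the 23063 probe sets whose mean reached the 40th percentile were fitted with limma 3.58.1 in R 4.3.3 (1 mean per group over 6 arrays, eBayes with an intensity trend). The number of arrays limits the precision. The background is the 95th percentile of 23 control probe sets and was chosen after the data were seen; "at least" folds are set against it. Symbols came from the platform annotation, updated through RefSeq GRCg7b (all 18 probe sets matched), and chromosomes from GRCg7b, while the array names no build. The members and 14 gene lists were chosen with earlier results of these data known. Lists were matched by current or older symbol, with the brightest probe set per gene, and up to 4 genes of smallest p per list and comparison were named, with other names said to be chosen after the values were seen. Likeness was taken for members spanning 2 or more on the log2 scale, with 3 genes each. Alternatives were the deposited scale, median centring, a pseudocount of 16, other filters, no trend, a replicate block, 2 groups only and leaving out each array; for the lists these were added after the data were seen. The fit was tested on simulated data.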

Additional observations from a re-analysis of the deposited data

How the results depend on the processing

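Over the alternatives, single probe sets kept direction and side of the threshold in 544 of the refits, while 24 lost a call, 20 gained one and 32 changed sign. In K11-5 relative to wild type the number called was 3 to 5 under other scalings, pseudocounts and filters, 4 with the replicate block and 0 without the intensity trend, and leaving out 1 array gave 0 to 5. In K11 relative to wild type it was 1 on the deposited scale, 1 with arrays centred on their medians, 1 with the replicate block (SPI1, adjusted p = 0.0393) and 1 with only the 2 groups, and leaving out 1 array gave 0 to 1. In K11-5 relative to K11 it was 4 on the deposited scale, 4 with a pseudocount of 16, 1 without a filter, 0 in limma without the trend (4 at an unadjusted p under 0.05) and 1 with only the 2 groups, and leaving out 1 array gave 0 to 5. Probe sets called in any comparison numbered 4, against 7 on the deposited scale, 6 with arrays centred or a pseudocount of 16, and 0 without the trend, and leaving out 1 array gave 1 to 6. The cause was not tested. The deposited scale moved the median of all tested probe sets to -0.12 in K11-5 and -0.31 in K11 relative to wild type, and 0.22 in K11-5 relative to K11.

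Signs turned at small fold changes that had passed no test. On the deposited scale and with arrays centred, the dimmer IKZF3 probe set had -0.011 and -0.010 in K11-5 relative to wild type, SPI1 probe set 1 had -0.074 and -0.010 and the dimmer BCL6 probe set -0.11 and -0.048 in K11 relative to wild type (-0.0052 for BCL6 with a pseudocount of 16), and SPI1 had 0.35 and 0.28 at probe set 1 and 0.16 and 0.097 at probe set 2 in K11-5 relative to K11. Leaving out 1 array gave ranges of -0.32 to 0.38 for the dimmer IKZF3 probe set in K11-5 relative to wild type. In K11 relative to wild type they were -0.66 to 0.059 for EBF1, -2.8e-05 to 0.89 for SPI1, -0.35 to 0.10 for IKZF3, -0.64 to 0.30 and -1.42 to 0.11 for POU2AF1 and -0.58 to 0.63 for BCL6. In K11-5 relative to K11 they were -0.65 to 0.67 for PAX5, -0.45 to 0.44 and -0.55 to 0.16 for SPI1, -0.52 to 0.85 and -0.23 to 0.58 for IKZF1 and -0.62 to 0.87 for PRDM1. The labels do not say whether same-numbered arrays of different groups share a batch. The deviations of same-numbered arrays correlated with r = -0.039, 0.060 and -0.032, which cannot settle it. The replicate block changed no other call among the members' probe sets. In the gene lists it gave, among others, 4 plasma cell genes and 7 B cell markers that fell in K11-5 relative to wild type, where 5 and 6 fell without it. A fit without 1 array assumes that the lone array of its group varies like the other groups.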
